A study of Mus musculus with 6 samples.

Results

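A set of 7225 probes that read genomic intervals, and not named transcripts, was examined in N2a cells with a knockdown of the transcription factor NF-Y. Such probes carry the name of a chromosome interval on the mouse mm9 build in place of a transcript accession. The array held 16194 of them among 55681 non-control probes. The 7225 probes (44.6%) were selected on the scanner's own detection flags, each probe being marked well above background on all 6 arrays. They carried 3258 of the 4610 interval names on the array. Most names end in a letter F or R, taken here as a strand letter, although the files do not say which RNA strand a probe reads. Whether an interval lies outside annotated genes, which genes lie nearby, and the probe sequences were not analysed here.

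Neuro2a (N2a) is a mouse neuroblastoma line. Control cells (3 arrays) are labelled only Vector, taken here as the empty miR RNAi vector, although the study also used a non-targeting one. Knockdown cells received vectors whose miR RNAi targets the NF-YA and NF-YC subunits (labelled YAYC, 3 arrays). If the control vector expressed no miR RNAi, effects of miR RNAi expression cannot be told apart from those of the knockdown. Both groups were transfected transiently with the same vector backbone, which also encodes the fluorescent protein EmGFP. No sorting or selection of transfected cells is described for these cultures, so the RNA may include that of untransfected cells.

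Long intergenic noncoding RNAs arise between protein-coding genes, are mostly made by RNA polymerase II, and are often spliced and polyadenylated. They are known to be less abundant and more restricted to particular tissues than mRNAs, and single probes to intervals of this kind can also read enhancer RNAs or unannotated extensions of genes. NF-Y is a trimer of NF-YA, NF-YB and NF-YC that binds CCAAT motifs, mainly in promoters but also at enhancers and at the long terminal repeats of retroviral elements.

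Both targeted genes were lower on every knockdown array. Nfya, the subunit that contacts the CCAAT motif, read 0.14, 0.15 and 0.21 on the control arrays and -0.66, -0.52 and -0.59 on the knockdown arrays, as log2 processed signal relative to the 75th percentile of the array. Its change was -0.76 with an SE of 0.055 (limma adjusted p = 0.00128). Nfyc, which pairs with NF-YB through a histone fold, fell by 1.81 with an SE of 0.045 (limma adjusted p = 0.000323). Over all arrays, 61.9 to 66.2% of non-control spots were well above background, the 75th percentile lay between 718 and 754 intensity units, and no non-control spot was saturated. Slide rows were taken from the position part of the array barcode. By that reading all 3 control arrays and knockdown array 1 lay in slide row 1, and knockdown arrays 2 and 3 lay in slide row 2.

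The neuroblastoma label was checked against marker genes. Of 19 markers of the neuroblastoma and sympathetic neuron lineage, 16 were well above background on all 6 arrays, among them Hand2, Th and Dbh, and Nefl was above background on none. Their summed level, in multiples of the 75th percentile of the array, was 468 to 480 on control and 440 to 455 on knockdown arrays. Markers of other cell types were also detected. Of 6 glial markers 4 were above background on all arrays and S100b on none, with sums of 0.855 to 0.866 on control and 0.517 to 0.526 on knockdown arrays. Of 4 matched macrophage and blood markers 3 were detected (8.28 to 9.77 and 8.23 to 9.68), of 4 fibroblast markers 3 with Col3a1 on no array (0.136 to 0.147 and 0.154 to 0.195), and of 3 endothelial markers 2 with Cdh5 on no array (13.7 to 15.2 and 12 to 13.2). The groups did not overlap for any list but the macrophage and blood list, and the part of these differences in the results that follow was not tested.

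Interval probes were detected less often than probes to annotated transcripts, which is a description of the selection and was not tested. Of 26392 probes with a curated mRNA (NM) accession, 69.4% were well above background on all 6 arrays, and of 771 with a curated noncoding (NR) accession 53.8% were. Among interval probes 5642 (34.8%) were above background on no array, against 21.0% of NM and 30.6% of NR probes. The remaining interval probes were above background on 1 to 5 arrays. Of the 591 that missed the selection by a single array, 285 were below on knockdown array 2 and 135 on knockdown array 3, while control array 2 accounted for 9.

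**Figure D1:**
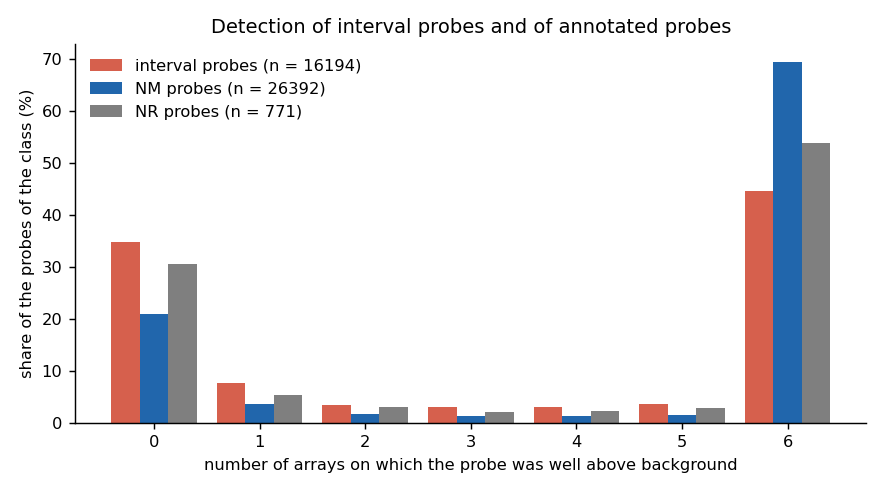
Share of the probes of each class (y axis, %) by the number of arrays on which a probe was well above background (x axis), for interval probes, NM probes and NR probes. Most probes of each class were above background on either all 6 arrays or none, and interval probes had the lowest share on all 6 (44.6%) and the highest share on none (34.8%).

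Most of the detected interval probes were dim. Their mean processed intensity had a median of 71.0 units, with 10% of them below 24.1 and 10% above 965, against an intensity of 718 to 754 at the 75th percentile of an array. On the normalized log2 scale the median was -3.41, and 780 of the probes (10.8%) lay above the 75th percentile on every array. The median over the probes was -3.42, -3.37 and -3.47 on the control arrays and -3.42, -3.29 and -3.35 on the knockdown arrays, so the arrays of the groups overlapped. At the edge of the selection, A_30_P01018235, the dimmest probe inside it, read 11.9, 11.6 and 16.0 units on control and 12.1, 15.6 and 17.2 on knockdown arrays. A_30_P01024119, the probe of median signal among those above background on 5 arrays, read 20.9, 12.2 and 16.1 on control and 19.4, 13.1 and 18.7 on knockdown arrays, and missed the flag on knockdown array 2. Probes inside and outside the selection thus shared a range of intensities.

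The 5 brightest interval probes had processed signals of 185748 to 311412 intensity units. A_30_P01026458 (chr11:22681800-22707775, R) read 8.69, 8.59 and 8.52 on control and 8.42, 8.47 and 8.47 on knockdown arrays. A_30_P01022075 (chr17:17481706-17482457, R) read 8.69, 8.58 and 8.60 on control and 8.27, 8.23 and 8.16 on knockdown arrays. The other bright probes were A_30_P01020015 (chr17:39982023-39983277, F), A_30_P01021243 (chr17:48068261-48087905, F) and A_30_P01031448 (chr14:78924115-78938125, F). The 5 changes were -0.15 to -0.40, and none passed the 1.5-fold threshold. They depended on the scaling, with -0.06 to -0.30 under quantile normalization and 0.01 to -0.31 when normexp was added, where A_30_P01026458 turned to 0.01. The changes of A_30_P01022075 and A_30_P01021243 had limma adjusted p values of 0.00701 and 0.0162, and the others ranged from 0.134 to 0.173.

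Most names with at least 3 probes were detected only in part. Of 3385 names with at least 3 probes on the array, 572 had every probe in the selection, 815 had none, and 1998 had some but not all. In 1365 names a single probe was detected. The intervals with a detected probe spanned 62 to 538251 bases, with a median of 11871. Names overlap one another, and merging overlapping intervals on either strand gave 1728 loci with a detected probe out of 2226. Probes of one locus can read the same transcript and are not independent replicates of it.

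The strand letters were detected to a like extent. Of F probes 3535 of 8171 (43.3%) were in the selection, and of R probes 3688 of 8010 (46.0%). The remaining 2 detected probes carried no letter. Of 1067 intervals probed under both letters, 691 (64.8%) had a detected probe under both, 300 (28.1%) under F or R alone, and 76 (7.12%) under neither.

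Interval probes changed in both directions after NF-Y knockdown, with shares below those of all tested probes. A probe was called at a limma adjusted p below 0.05 and a change above 1.5-fold, and 7183 of the 7225 probes were tested, the other 42 having lost a value to an outlier spot. In knockdown cells 188 of them (2.62%) were up-regulated, where 3.35% of all 42126 tested probes were, and 144 (2.0%) were down-regulated, where 3.82% of all tested probes were. The 42126 probes were not held to the detection rule on all 6 arrays. Of the 32209 tested probes that met it, 3.3% were up-regulated and 4.17% down-regulated. The median change of the interval probes was 0.0023 on the log2 scale and that of all tested probes was 0.0026. Quantile normalization turned the balance, with 152 up-regulated and 180 down-regulated probes. Normexp background correction, run with an offset of 50 units that shrinks the fold changes of dim probes, left 57 and 73. The shares of all tested probes under these 2 settings are not given here. The shifts therefore cannot be read as particular to interval probes. In bulk RNA such changes cannot be told apart from changes in the share of cells that make the transcript.

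The sizes of the changes were moderate. The middle 90% of the probes changed by -0.43 to 0.58 on the log2 scale. Up-regulated probes had a median change of 0.76 and down-regulated probes one of -0.82, and 35 and 43 of them passed 2-fold. With each array left out in turn, 120 of the 188 and 106 of the 144 were called every time. Arrays of slide row 1 alone (3 control arrays and knockdown array 1, which are among the arrays that made the calls) gave the same sign for all 188 and all 144, with median changes of 0.79 and -0.82. Control and knockdown arrays did not overlap for any called probe, so these signs could not have come out otherwise. With slide row as a block, 92 of the 188 and 98 of the 144 were still called.

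Probes to annotated transcripts under the same detection rule were called more often. Among NM probes above background on all 6 arrays, 633 of 18292 (3.46%) were up-regulated and 1003 (5.48%) down-regulated. For NR probes these were 30 of 415 (7.23%) and 11 (2.65%). Interval probes were dimmer, with a median normalized signal of -3.41 against 0.49 for NM and -1.84 for NR probes, and the fit was less precise for dimmer probes. Interval probes were therefore split into 4 equal bins by mean signal, and the NM probes within the limits of each bin were set beside them.

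In the dimmest bin of the interval probes, 2.39% were up-regulated and 0.947% down-regulated, against 5.34% and 1.67% of NM probes. In the next bin the shares were 2.01% and 1.45%, against 5.79% and 5.22%. The next brighter bin had 4.29% and 2.62% of interval probes called, against 5.75% and 6.38% of NM probes. In the brightest bin they were 1.78% and 3.01%, against 2.61% and 5.73%. That bin ran from -1.76 to 8.53 and held 1796 interval and 13027 NM probes, so signals were not matched within it. The median SE of an interval probe fell from 0.185 in the dimmest bin to 0.0681 in the brightest, and that of NM probes from 0.174 to 0.0536. Up-regulated interval probes outnumbered down-regulated ones in the 3 dimmer bins, and the order turned in the brightest. These shares were described and not tested against each other. Among probes that missed the selection by a single array, 48, 285 and 135 did so on knockdown arrays 1 to 3. On control arrays 1 to 3 the counts were 77, 9 and 37. The part of this imbalance in the directions by signal was not tested.

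**Figure D2:**
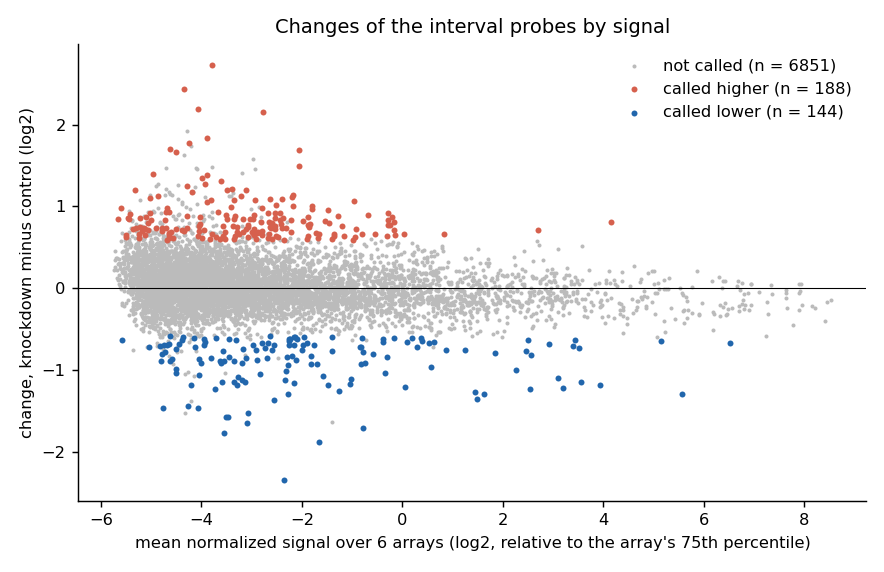
Change of each tested interval probe (y axis, knockdown minus control, log2) against its mean normalized signal over the 6 arrays (x axis, log2 relative to the 75th percentile of the array), with the 188 up-regulated and 144 down-regulated probes in colour. Called probes lie across the signal range, and the largest increases sit on dim probes.

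Down-regulated probes stood at higher signal than up-regulated ones, with a median normalized signal of -2.27 (intensity 160) against -3.11 (intensity 89.1). The part of the selection in this difference was not tested. By strand letter, 70 F and 118 R probes were up-regulated (1.99% and 3.22% of those tested), and 59 F and 85 R probes were down-regulated (1.68% and 2.32%). R probes were thus called more often in both directions, and no test of that difference was made. Called probes shared loci, some with calls under R alone and some under F alone, so these shares do not count independent places.

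Most of the large changes sat on dim probes and shrank under normexp background correction. Its offset of 50 units is added to every spot and by itself shrinks the fold change of a dim probe. Normexp moved the fold change of 10 of the 12 largest increases and 9 of the 12 largest decreases by more than 1.5 times, and their median changes from 1.74 to 0.88 and from -1.58 to -0.90. The order given here holds for the processed signal as deposited, and under normexp A_30_P01032681 had the largest increase among these probes (1.31).

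On the processed signal the largest increase was that of A_30_P01033484 (chr15:85412264-85549139, F). It read -5.07, -5.09 and -5.29 on control and -2.40, -2.53 and -2.34 on knockdown arrays, a 6.64-fold increase (change 2.73, SE 0.087, limma adjusted p = 0.000323). Under normexp the change was 1.22, or 2.33-fold. Its interval did not move as a unit. Of 9 detected F probes of the interval, which spans 136876 bases, only A_30_P01031395 was also up-regulated, by 0.71, and the median change of the 9 was -0.02. A_30_P01024395 rose by 0.58 (limma adjusted p = 0.00249), just under the 1.5-fold threshold. The 6 detected R probes changed by -0.58 to 0.02 and none was called.

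The next increase in order belonged to an interval on the X chromosome where several probes rose. A_30_P01021240 (chrX:50400250-50410825, R) read -5.61, -5.36 and -5.69 on control and -3.35, -2.80 and -3.21 on knockdown arrays, a change of 2.43 (SE 0.17, limma adjusted p = 0.00126) that fell to 0.96 under normexp. A_30_P01025504 and A_30_P01032068 of the same name rose by 1.40 and 0.63, while A_30_P01026587 changed by -0.31 and was not called. A shorter interval inside it, chrX:50407969-50410370 (R), had all 3 of its probes up-regulated, by 0.83 to 1.12. Of the 8 F probes of the outer interval 2 were detected on all arrays, with changes of -0.30 and -0.10 and no call. A_30_P01025504 kept its call under 9 of 17 alternatives. It was not called without control array 3, knockdown array 1 or knockdown array 2, with a block for replicate number or slide row, within slide row 1, or under either normexp setting (0.43 and 0.38).

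In chr17:7002731-7032535 (R) every detected probe rose. A_30_P01032681 read -4.04, -3.85 and -3.65 on control and -1.69, -1.59 and -1.78 on knockdown arrays, a change of 2.16 (SE 0.12, limma adjusted p = 0.000663) and of 1.31 under normexp. A_30_P01026475 and A_30_P01028889 rose by 1.84 and 1.71. The array holds no F probe under this interval's name, and A_30_P01028889 was not called under normexp or with slide row as a block.

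A pair of neighbouring R intervals on chromosome 15 also held large increases. A_30_P01028225 (chr15:68172597-68194740) read -5.21, -4.70 and -5.59 on control and -3.08, -2.77 and -3.09 on knockdown arrays, a change of 2.19 (SE 0.25, limma adjusted p = 0.00415) and of 1.04 under normexp. Its call was lost with slide row as a block. The other detected probe of that name, A_30_P01021404, changed by 0.35 and was not called. In chr15:68170864-68171544, which is 681 bases long, A_30_P01028913 and A_30_P01021877 rose by 1.77 and 1.12. A_30_P01028913 had the tightest arrays of the 12, with -5.20, -5.16 and -5.05 on control and -3.37, -3.38 and -3.35 on knockdown arrays.

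The remaining large increases were isolated probes or pairs. A_30_P01024849 (chr2:168136389-168136560, R), the only probe of its name, rose by 1.5. A_30_P01022077 (chr14:115423660-115463160, R) rose by 1.66, while the 7 other detected R probes of that name were not called, and it lost its own call with slide row as a block. A_30_P01032870 and A_30_P01025938 (chr17:36130717-36137617, R) rose by 1.38 and 1.01.

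Several of the largest decreases came in pairs of probes from one interval. In chr9:121846340-121848578 (F), A_30_P01021729 read -1.10, -1.13 and -1.29 on control and -3.28, -3.54 and -3.75 on knockdown arrays, a 5.09-fold decrease (change -2.35, SE 0.13, limma adjusted p = 0.000736). Under normexp its change was -1.63, or 3.09-fold. A_30_P01024764 of the same name read 0.04, 0.10 and 0.06 on control and -1.57, -1.64 and -1.74 on knockdown arrays, a change of -1.72. The remaining probe, A_30_P01021528, read -2.72 and -2.95 on knockdown arrays 1 and 2 but -0.99 on knockdown array 3, close to its control values of -0.54, -0.58 and -0.65, and it was not called (limma adjusted p = 0.0945). The longer interval chr9:121845920-121858120 (F) contains this one, and 4 of its 5 detected F probes were down-regulated, with changes of -0.76 to -1.18. The 5th, A_30_P01030971, changed by -0.32 (limma adjusted p = 0.0551).

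In chr1:33893475-33903900 (F) the probes split. A_30_P01023661 read -0.74, -0.62 and -0.82 on control and -2.51, -2.83 and -2.49 on knockdown arrays, a change of -1.89, and A_30_P01030820 fell by 1.58. A_30_P01029002 and A_30_P01032959 of the same interval changed by -0.21 and -0.03. By contrast all 3 detected probes of chr3:45081952-45092352 (F) fell. A_30_P01025777 read -2.28, -2.35 and -2.17 on control and -3.98, -3.89 and -3.90 on knockdown arrays, a change of -1.65, and A_30_P01020170 and A_30_P01026769 changed by -1.77 and -1.17.

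A_30_P01019173 (chr8:119092623-119094219, R), the only detected probe of its name, fell by 1.47. On the X chromosome both strand letters of chrX:148720661-148763177 held a large decrease, A_30_P01032237 (F) with -1.46 and A_30_P01024592 (R) with -1.44. These probes were among the dimmest of the named decreases, with 13.8 to 49.7 and 20.4 to 74.6 intensity units, and neither was called when the background was corrected by normexp instead.

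**Figure D3:**
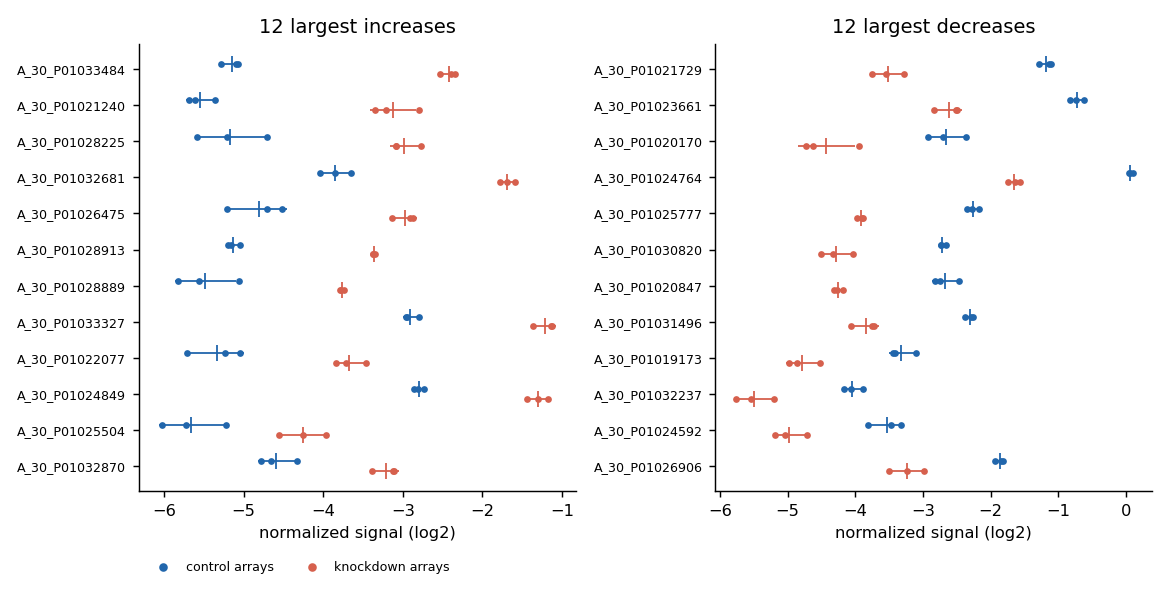
Normalized signal (x axis, log2 relative to the 75th percentile of the array) of the 12 interval probes with the largest increase and the 12 with the largest decrease, 1 point for each array, with the mean (tick) and SD (bar) of the 3 control and 3 knockdown arrays. The control and knockdown arrays do not overlap for any of these probes, which is a condition of their choice.

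Called probes shared interval names. The 332 called probes carried 217 names, and 34 names had 2 or more up-regulated probes and 35 had 2 or more down-regulated probes. No single name held called probes of both directions, although 4 loci of overlapping names did. In one of them both probes carried the letter F. A_30_P01026644 (chr9:75338012-75345341) changed by -0.67 and A_30_P01022985 (chr9:75316023-75344401) by 0.92. Counted from each called probe, 690 of 807 other tested probes of the same name (85.5%) changed with the same sign, and 364 (45.1%) were called the same way. Across 1888 names with at least 2 tested probes, the changes of the first 2 probes had a correlation of 0.45, where the probes share the same 6 arrays and may read the same RNA. After merging overlaps, the calls came from 185 loci, 126 of them with a single called probe.

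In 5 names 5 probes were called in one direction, and in 6 more names 4 were. Of these 11 names 6 were up-regulated and 5 down-regulated. The 8 described next are the 5 with 5 called probes and, of the 6 with 4, the 3 with the largest mean change. All 5 probes of chr12:70213282-70225157 (R) fell, with changes of -0.70 to -1.58. Averaged over the probes, it read -2.17, -2.16 and -2.22 on control and -3.36, -3.38 and -3.51 on knockdown arrays, so that the arrays of each group lay within a narrow band.

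The 5 F probes of chr10:83181374-83249774 gave the most even response. Their changes were -1.15 to -1.23, although the probes differed widely in signal, and limma adjusted p ranged from 0.000331 to 0.000447. The mean of the 5 probes was 3.28, 3.26 and 3.24 on control and 2.09, 2.03 and 2.07 on knockdown arrays, so that the mean lay above the 75th percentile on every array. An interval inside it, chr10:83185606-83225506 (F), had all 3 probes down-regulated, with changes of -1.28 to -1.36. The 3 detected R probes of the outer interval changed by -0.27 to 0.39 and none was called. Another name that ends slightly further, chr10:83181374-83249918, had 1 of 5 R probes down-regulated, with a change of -1.15, and an F probe at -0.12. With 9 down-regulated probes in all, this was the locus with the most called probes.

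On the up-regulated side, the 5 R probes of chr1:175705225-175717250 rose by 0.77 to 1.22. Their mean was -3.03, -3.03 and -3.04 on control and -2.02, -1.99 and -2.04 on knockdown arrays. Another up-regulated locus, chr1:175653557-175672031, lay 33193 bases away and held 2 up-regulated probes. Both detected F probes of chr1:175705225-175717250 were not called, and A_30_P01024771 read -2.42 on knockdown array 2 but -5.09 and -4.46 on the other knockdown arrays.

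All 4 F probes of chr4:146017200-146029700 rose, by 1.18 to 1.35, from a mean of -4.61, -4.61 and -4.75 on control to -3.50, -3.29 and -3.36 on knockdown arrays. In chr4:11899775-11931875 (F) the 4 detected probes rose by 0.75 to 0.97, and the overlapping chr4:11893711-11921443 (F) added 2 up-regulated probes. All 5 F probes of chrX:165792277-165807952 rose, by 0.68 to 0.99, while none of the 5 R probes was detected on every array. In chr2:35828611-35838083 (R) 5 probes rose by 0.65 to 0.87. The 3 probes of chr2:35829956-35830757 (R), a shorter interval inside it with the same letter, changed by -0.25 to 0.27 and none was called. Under normexp, all called probes of chr10:83181374-83249774 (F, 5), chr1:175705225-175717250 (R, 5) and chr9:121845920-121858120 (F, 4) were called. It left 3 called in chr12:70213282-70225157 (R), 2 in each of the chromosome 4 intervals, 1 in chr2:35828611-35838083 (R) and none in chrX:165792277-165807952 (F). The mean change of chr4:146017200-146029700 (F) went from 1.27 to 0.59.

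**Figure D4:**
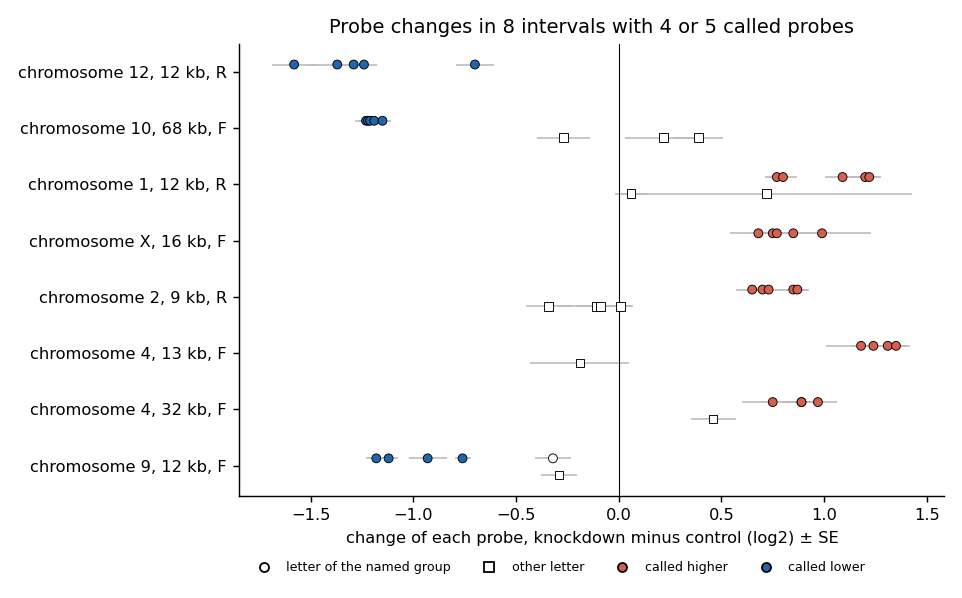
Change of each tested probe (x axis, knockdown minus control, log2, with its SE as a bar) in 8 intervals with 4 or 5 called probes, the ties at 4 settled by mean change, labelled by chromosome, length and strand letter. Circles are probes of the named letter and squares those of the other letter, and every filled symbol is a circle.

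The larger loci added a few runs of calls. At chr5:22801058-22939737 7 of 19 detected probes were up-regulated, with a mean change of the called probes of 0.78, and they came from 3 overlapping R names, while chr5:22905597-22939154 (R) and chr5:22928221-22939127 (R) inside the same locus had none. At chr14:21437920-21464655 (F) 6 of 9 detected probes were up-regulated. Both probes of chr8:124364048-124365705 (F) changed by -0.50 and -0.68, the latter down-regulated, whereas 5 R probes of that locus were up-regulated.

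Of all chromosomes the X had the highest share of called probes, 10.8% of 212 tested, with 20 up-regulated and 3 down-regulated. That share came from few places. The 23 calls lay in 6 loci, and 17 of the 20 up-regulated probes lay in the loci around chrX:50400250-50410825, chrX:165792277-165807952 and chrX:54627918-54638568. The shares of the other chromosomes ranged from 1.65% to 7.26%, and they were not tested against each other.

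Averaged over an interval, the changes under one strand letter were only weakly related to those under the other. Across 689 intervals with tested probes under both letters, the mean change of F probes and that of R probes had a correlation of 0.16 (Spearman 0.16), over points that share the 6 arrays. Of these intervals 596 held no called probe. Counted from each called probe, 253 of 407 probes of the other letter (62.2%) changed with the same sign and 40 (9.83%) were called the same way. A further 2 were called the opposite way. Among all tested interval probes, 50.4% had a change above 0 and 4.62% were called in either direction. Of 10 loci with called probes under both letters, 6 were down-regulated throughout, 1 was up-regulated throughout, and 3 held opposite calls.

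The sharpest opposite pair was in chr13:112337405-112356455. A_30_P01033327 (F) read -2.95, -2.96 and -2.80 on control and -1.14, -1.12 and -1.37 on knockdown arrays, a change of 1.69 (SE 0.091, limma adjusted p = 0.000631). A_30_P01031496 (R) read -2.38, -2.26 and -2.29 on control and -3.72, -3.75 and -4.07 on knockdown arrays, a change of -1.53 (SE 0.11, limma adjusted p = 0.00126). Each stood alone under its letter, as the other 2 detected F probes changed by -0.22 and -0.20 and the other R probe by 0.06. Around chr15:84737071-84753513, A_30_P01026849 (F) fell by 0.78 while both R probes of chr15:84752337-84752984, A_30_P01024974 and A_30_P01025461, rose by 0.62 and 0.63.

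**Figure D5:**
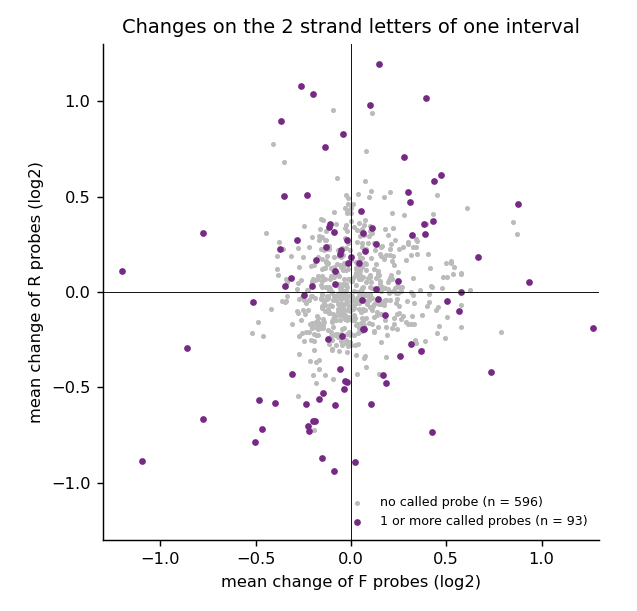
Mean change of the F probes (x axis, log2) and of the R probes (y axis, log2) of the 689 intervals with tested probes under both letters, with the 93 intervals that hold a called probe in colour. Mean changes span -1.20 to 1.27, and the cloud shows little slope (correlation 0.16).

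The 8 names with the most detected probes, 10 each, had 78 tested probes. Of these 1 was up-regulated and 4 were down-regulated (6.41% called, against 4.62% of all tested interval probes), with changes from -1.0 to 0.89. In some of them every probe had a small change of one sign. The 10 F probes of chr17:26911397-26917047 changed by -0.32 to -0.62, of which 2 were called, and the 10 R probes of chr14:65431652-65437902 changed by 0.06 to 0.46 with no call. In chr5:74487385-74497428 (F) the 9 tested probes changed by -0.02 to -1.0 and 2 were called.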

How the data were processed

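Total RNA of N2a cells was measured on 6 single-colour (Cy3) Agilent SurePrint G3 mouse arrays. The authors scanned the arrays and ran Feature Extraction 10.10.1.1, per the file headers, and the deposited intensity of each spot is its processed signal on a linear scale after background correction, with flags for outliers, saturation and signal well above background. The deposited series matrix holds log2 values of the authors, which match the scaling used here. Interval names are on mm9, the build in the file headers.

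Control and outlier spots were left out. Processed signals were put on the log2 scale, each array was centred on its 75th percentile, and a model was fitted over all probes that reached the 20th percentile on all 3 arrays of a group (42126 probes), by the two-sided lmFit and eBayes test of limma 3.58.1 (R 4.3.3, no covariates) and Benjamini-Hochberg adjustment over all of them. Tables and figures used Python 3.11.15, pandas 2.3.3 and matplotlib 3.10.9. The scripts were tested on simulated data. A change is the mean log2 value of knockdown arrays less that of control arrays. Arrays and groups follow the sample titles, and since nothing there says that replicates were separate cultures, p-values measure the spread between these samples. The number of arrays limits the precision.

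Named probes are the 12 largest called changes in each direction whose groups did not overlap, the 5 brightest probes, all tested probes of the 8 names with the most called probes (ties settled by mean change), and the names with the most detected probes; other names and loci in the text were picked after their values were seen. Intervals on 1 chromosome were counted and not named. The members and lists were chosen with earlier results of these data known. Overlapping intervals were merged with strand ignored. Alternatives were quantile normalization, normexp (on the median and local background signals, offset 50), the authors' matrix, changes of filter and threshold, array weights, an intensity trend in the variance, blocks for replicate number or slide row, arrays of slide row 1 alone (added after the data were seen), and leaving out each array. Deviations of same-numbered arrays of the groups had correlations of 0.002 to 0.067, so the numbers were not taken as pairs.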

Additional observations from a re-analysis of the deposited data

Results flagged for a closer look

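Some interval probes outside the selection were flagged above background in one group alone. Among all non-control probes, 57 were well above background on all 3 knockdown arrays and on no control array. Of these 57, 9 were interval probes, and 5 of the 9 were called higher. The reverse, all 3 control arrays and no knockdown array, held for 225 non-control probes. Of these 225, 92 were interval probes, and 22 of the 92 were called lower. On the whole array 16194 of the 55681 non-control probes were interval probes. Calls among the other probes of these kinds were not counted, so the called counts have no reference share. Since these probes were picked for detection in one group, the direction of their calls follows from the choice. The selection on all 6 arrays leaves such probes out, and the lower share of spots above background on knockdown arrays 2 and 3 (61.9% and 63.4%) stands beside these counts. Its part in them was not tested.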

How the results depend on the processing

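The replicate block gave 152 up-regulated and 132 down-regulated probes and 63 names with several called probes, against 188, 144 and 69. Shares of all tested probes under most alternatives are not given, so shifts in these counts cannot be read as particular to interval probes. Leaving out each array gave 148 to 212, 122 to 146 and 61 to 68, Nfya changes of -0.80 to -0.72 and Nfyc changes of -1.83 to -1.79. Normexp gave 57, 73 and 28, keeping 56 of the 188 and 66 of the 144 calls, and normexp with quantile normalization 48, 73 and 26, keeping 45 and 70. Quantile normalization gave 152 up-regulated and 180 down-regulated probes and moved the median change of the interval probes to -0.059, so which direction held more probes depended on the scaling. With slide row as a block the counts were 126, 117 and 45. Within slide row 1, with a single knockdown array assumed to vary like the controls, no probe of any class was called by limma (0, 0 and 0), Nfya was at -0.83 and Nfyc at -1.85 without a call, and 263 and 205 interval probes had an unadjusted p below 0.05 and a change above 1.5-fold. Without a minimum fold change 527 and 503 probes passed, above 2-fold 35 and 43, and asking for 3 called probes left 30 names. The series matrix gave 187 and 148. Of the 24 largest changes named, normexp left increases of 0.43 to 1.31 (from 1.38 to 2.73) and decreases of -0.46 to -1.63 (from -1.37 to -2.35), 20 to 24 stayed called under each alternative but slide row 1 alone, where none was, and none changed sign. The normexp offset of 50 units shrinks fold changes of dim probes by itself, and its share in the normexp differences was not tested. The cause of the other differences was not tested either. Many of the interval probes were only slightly above background, which limits what their changes can show.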
